A study of Mus musculus with 2 samples.

Results

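The cells described here are T cells from the retinal pigment epithelium (RPE) and choroid of the mouse eye that carried RNA of the CD8 co-receptor and little RNA of effector T cells. They were selected on their own counts of unique molecular identifiers (UMIs, 1 per captured RNA molecule). A barcode needed at least 1500 UMIs and 200 genes, at least 2 UMIs summed over Cd3d, Cd3e and Cd3g, at least 1 UMI of Cd8a or Cd8b1, and 0 UMIs of Cd4 and Cd79a. It could hold at most 1 UMI of Lyz2 and at most 1 UMI summed over Cxcr6, Trdc, Tcrg-C1, Cxcr3 and Icos, called the effector sum. This gate held 238 of 3377 cells, 120 of 1847 in the Tsc1 RPE KO library and 118 of 1530 in the Tsc1 flox library. The working name of these cells is naive-like CD8 T cells. The data bore that name out for only some of them, so they are called gated CD8 T cells.

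Tsc1 RPE KO mice carried the floxed Tsc1 allele Tsc1tm1Djk/J together with Best-Cre, a Cre transgene that the labels describe as RPE-specific, and Tsc1 flox mice carried the same allele, with no Cre named. All mice were 10 weeks old. Tissue of a female and a male was combined for each library, the neural retina had been removed, and live cells were sorted before droplet 3' single-cell RNA sequencing. With 1 library per genotype no test between genotypes was possible, so ratios are given with 95% counting intervals, which cover neither differences between mice nor between preparations.

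Naive CD8 T cells circulate between blood and lymphoid organs, which they enter with the help of the chemokine receptor Ccr7, while the transcription factors Lef1 and Tcf7 mark their resting state. After they meet antigen on MHC class I they become effector and memory cells, which make the chemokine Ccl5, granzymes such as Gzma, and receptors such as Cx3cr1 that lead them into tissues and along vessels. The choroid is the vascular layer behind the RPE, and its vessels carry blood leukocytes, so T cells of tissue and of blood can both be present in such a preparation.

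The gated CD8 T cells made up 6.50% of all cells in the Tsc1 RPE KO library (exact Clopper-Pearson 95% interval 5.42 to 7.72) and 7.71% in the Tsc1 flox library (6.43 to 9.16). Of all T cells passing the CD3, Cd79a and Lyz2 steps, they were 33.2% (28.4 to 38.4) in Tsc1 RPE KO and 35.0% (29.9 to 40.4) in Tsc1 flox. These intervals overlapped. Their UMIs summed to 700595 in Tsc1 RPE KO and 766088 in Tsc1 flox, with medians of 5873.5 and 5996 UMIs and of 1822.5 and 1842 genes per cell. The libraries shared 2 barcodes among all cells and 0 among the gated CD8 T cells. Barcodes with at least 3 UMIs of markers of another cell type numbered 29 in Tsc1 RPE KO (24.2%) and 28 in Tsc1 flox (23.7%), and no doublet caller was run. Among them was 1 barcode per library with many UMIs of Dcn, a fibroblast proteoglycan (82 UMIs in Tsc1 RPE KO, 249 in Tsc1 flox), and 1 Tsc1 RPE KO barcode with 28 UMIs of the rod gene Sag.

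The values that chose the cells are a description and support nothing further. Both co-receptor chains were seen in 89 Tsc1 RPE KO cells and 95 Tsc1 flox cells. Cd8b1 without Cd8a was seen in 28 Tsc1 RPE KO cells and 21 Tsc1 flox cells, and Cd8a without Cd8b1 in 3 and 2 cells. Cd8b1, the beta chain that is paired with the alpha chain on conventional CD8 T cells, had 3.27 UMIs per Cd8a UMI in Tsc1 RPE KO and 3.37 in Tsc1 flox. The lowest CD3 sum of a gated cell was 6 UMIs in Tsc1 RPE KO and 4 UMIs in Tsc1 flox, so 0 cells stood just inside or just outside that limit. An effector sum of 1 UMI, the highest allowed, was held by 37 cells of each library, while 11 Tsc1 RPE KO and 15 Tsc1 flox CD8 T cells with a sum of 2 UMIs fell just outside. A further 7 Tsc1 RPE KO and 2 Tsc1 flox cells that met the other limits were left out because they also held a Cd4 UMI, and 1 Tsc1 RPE KO and 0 Tsc1 flox cells held at least 1000 UMIs but missed the limit of 1500.

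Ccl5 split the gated CD8 T cells into 2 kinds. This chemokine of memory and effector T cells was at 0 UMIs in 72 Tsc1 RPE KO cells and 90 Tsc1 flox cells, and at 1 to 4 UMIs in 14 and 8 cells. At the other end, 31 Tsc1 RPE KO cells and 17 Tsc1 flox cells held 20 UMIs or more, up to 391 and 447 UMIs in a cell, and only 3 cells of each library lay between 5 and 19. Cells with at least 5 UMIs are called Ccl5-high here and the others Ccl5-low, a limit chosen after the values were seen, so no test is given on the split. Ccl5-high cells numbered 34 of 120 in Tsc1 RPE KO (28.3%, 20.5 to 37.3) and 20 of 118 in Tsc1 flox (16.9%, 10.7 to 24.96). They held 99.5% of all Ccl5 UMIs of the gated cells in Tsc1 RPE KO and 99.6% in Tsc1 flox. Of the B cells of the same libraries, 1 of 320 in Tsc1 RPE KO and 0 of 403 in Tsc1 flox reached 5 Ccl5 UMIs, at median depths of 3879 and 3904 UMIs.

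By RNA of Lef1, Dapl1 and Ccr7, the name naive-like fitted the Ccl5-low cells better than the Ccl5-high cells. Of the Ccl5-low cells, 1 of 86 in Tsc1 RPE KO and 0 of 98 in Tsc1 flox lacked UMIs of Lef1, Dapl1 and Ccr7, and the medians over these 3 genes were 9 and 8 UMIs. Among the Ccl5-high cells, 20 of 34 in Tsc1 RPE KO and 10 of 20 in Tsc1 flox had none, with medians of 0 and 0.5 UMIs. Lef1, a transcription factor of naive T cells, was seen in 82 Ccl5-low and 12 Ccl5-high cells of Tsc1 RPE KO and in 92 Ccl5-low and 8 Ccl5-high cells of Tsc1 flox. Dapl1, a marker of resting CD8 T cells in the mouse, was seen in 52 Ccl5-low and 3 Ccl5-high cells of Tsc1 RPE KO and in 55 Ccl5-low and 4 Ccl5-high cells of Tsc1 flox. Lef1 was seen in 5.00% of Tsc1 RPE KO and 4.22% of Tsc1 flox B cells, and Dapl1 in 0.625% and 0%. Ccr7 does not separate T from B cells, since 61.9% and 65.0% of B cells in Tsc1 RPE KO and Tsc1 flox had a Ccr7 UMI.

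**Figure D1:**
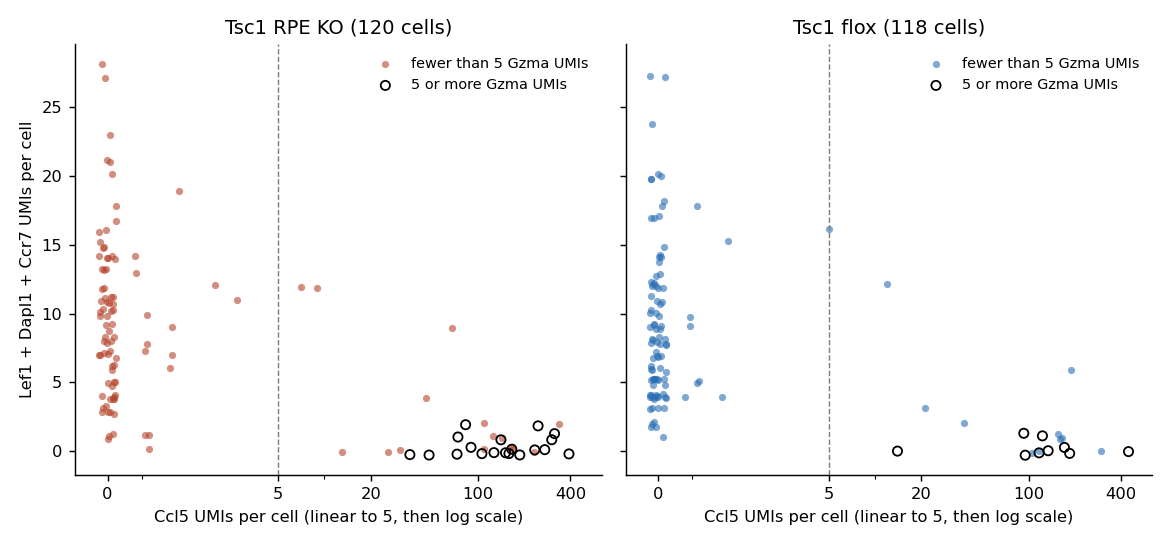
UMIs of Ccl5 per cell (horizontal, linear up to 5 and logarithmic beyond) against the summed UMIs of Lef1, Dapl1 and Ccr7 (vertical) in each gated CD8 T cell, with Tsc1 RPE KO on the left and Tsc1 flox on the right; points are shifted slightly at random so that they do not hide each other. The 19 Tsc1 RPE KO and 9 Tsc1 flox cells with 5 or more Gzma UMIs (open circles) lie right of the dashed line at 5 Ccl5 UMIs and near 0 on the vertical axis.

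The Ccl5-high cells carried the RNA of cytotoxic memory and effector cells. Gzma, a granzyme, reached 5898 counts per 1000000 UMIs (CPM) in the Ccl5-high cells of Tsc1 RPE KO and 3511 CPM in those of Tsc1 flox, against 3.75 and 3.09 CPM in the Ccl5-low cells of the same libraries. The 19 Tsc1 RPE KO and 9 Tsc1 flox cells with at least 5 Gzma UMIs were all Ccl5-high. Cx3cr1, the fractalkine receptor, had 663 CPM in Ccl5-high Tsc1 RPE KO cells and 302 CPM in Ccl5-high Tsc1 flox cells, and 0 UMIs in the Ccl5-low cells of both libraries. Zeb2, a transcription factor of terminal effector cells, had 508 and 327 CPM in the Ccl5-high cells of Tsc1 RPE KO and Tsc1 flox, and 1.88 and 0 CPM in the Ccl5-low cells. Nkg7, a granule protein, was found on both sides, with 2354 and 1600 CPM in Ccl5-high cells and 353 and 342 CPM in Ccl5-low cells of Tsc1 RPE KO and Tsc1 flox. These genes stood high in the Ccl5-high cells of both libraries, and only Nkg7 of the 4 was well above 0 in Ccl5-low cells. A list of 16 cytotoxic effector genes summed to 12250 CPM in Ccl5-high and 945 CPM in Ccl5-low cells of Tsc1 RPE KO. In Tsc1 flox the sums were 10164 and 781 CPM, so the Ccl5-low cells were not free of such RNA.

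The naive genes ran the other way. Satb1, a chromatin organiser, had 65.7 CPM in Ccl5-high and 386 CPM in Ccl5-low cells of Tsc1 RPE KO, and 142 and 376 CPM in Tsc1 flox. Il7r, the receptor for the survival cytokine IL-7, had 317 CPM in Ccl5-high and 1341 CPM in Ccl5-low cells of Tsc1 RPE KO, and 570 and 1305 CPM in Tsc1 flox. Klf2, a transcription factor that controls S1pr1, did not follow: it was 1727 CPM in Ccl5-high and 1331 CPM in Ccl5-low cells of Tsc1 RPE KO, but 1156 and 1475 CPM in Tsc1 flox. Ribosomal protein genes gave 24.1% and 25.99% of UMIs in the Ccl5-high cells of Tsc1 RPE KO and Tsc1 flox and 38.9% and 38.3% in the Ccl5-low cells. Median depths were 4601.5 and 4598 UMIs in Ccl5-high and 6358.5 and 6432.5 UMIs in Ccl5-low cells; the part of depth in the split was not tested.

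**Figure D2:**
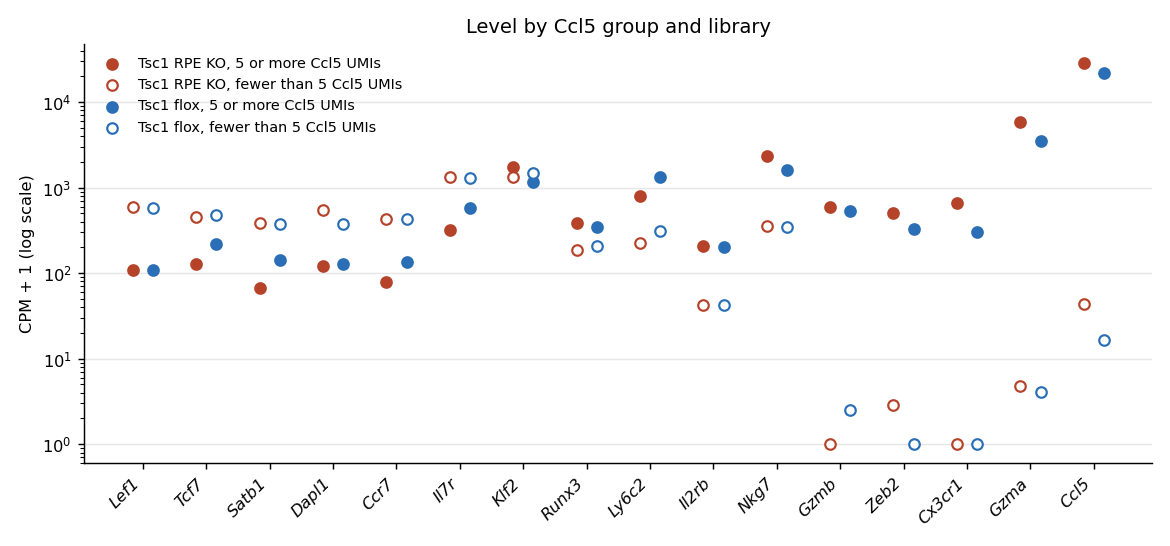
Level of 16 genes as CPM plus 1 (logarithmic axis) in Ccl5-high cells (filled) and Ccl5-low cells (open), with Tsc1 RPE KO left of Tsc1 flox at each gene. Naive genes from Lef1 to Il7r are higher in Ccl5-low cells and genes from Runx3 to Ccl5 higher in Ccl5-high cells in both libraries, while Klf2 changes order between libraries.

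The promoters of 4 genes are shown because they stand at the poles of the split: Gzma and Cx3cr1 for the Ccl5-high cells, and Dapl1 and Ccr9, a chemokine receptor with 1 and 0 positive Ccl5-high cells, for the Ccl5-low cells. They are from RefSeq (GRCm38.p6, the same assembly as mm10), 5′ to 3′ on the strand of the gene, with 250 bases before the start in lower case and the first 50 transcribed bases in capitals. The Gzma promoter is at chr13:113100932-113101231 and the Cx3cr1 promoter at chr9:120068247-120068546, both on the minus strand. The Dapl1 promoter is at chr2:59484403-59484702 and the Ccr9 promoter at chr9:123766961-123767260, both on the plus strand.
Gzma: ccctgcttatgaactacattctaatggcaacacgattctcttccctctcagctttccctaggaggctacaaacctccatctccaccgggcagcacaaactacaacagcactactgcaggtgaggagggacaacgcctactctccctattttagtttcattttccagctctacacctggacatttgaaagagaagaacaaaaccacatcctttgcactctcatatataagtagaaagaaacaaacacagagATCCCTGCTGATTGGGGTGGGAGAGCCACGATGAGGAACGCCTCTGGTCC
Cx3cr1: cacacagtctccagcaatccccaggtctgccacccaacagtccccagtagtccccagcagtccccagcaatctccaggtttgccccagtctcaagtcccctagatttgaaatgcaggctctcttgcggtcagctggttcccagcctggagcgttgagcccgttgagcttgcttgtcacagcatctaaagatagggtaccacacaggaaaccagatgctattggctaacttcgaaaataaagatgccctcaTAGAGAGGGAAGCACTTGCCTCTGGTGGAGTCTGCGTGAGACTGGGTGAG
Dapl1: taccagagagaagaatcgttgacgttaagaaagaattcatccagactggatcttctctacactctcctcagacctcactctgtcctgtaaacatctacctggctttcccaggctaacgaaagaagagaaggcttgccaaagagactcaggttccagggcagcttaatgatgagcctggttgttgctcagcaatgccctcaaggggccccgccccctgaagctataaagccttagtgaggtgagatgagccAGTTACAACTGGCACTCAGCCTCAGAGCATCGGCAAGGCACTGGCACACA
Ccr9: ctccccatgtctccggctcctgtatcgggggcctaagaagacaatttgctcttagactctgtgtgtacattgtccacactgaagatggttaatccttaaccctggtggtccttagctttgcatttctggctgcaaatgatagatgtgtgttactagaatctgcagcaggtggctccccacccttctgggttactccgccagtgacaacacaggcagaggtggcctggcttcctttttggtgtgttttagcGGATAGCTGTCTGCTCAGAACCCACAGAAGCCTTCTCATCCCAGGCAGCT
Neither the T-box half-site TCACAC nor the TCF/LEF core CTTTGA was found in these 4 windows on either strand. Of 32851 promoters of the same length, 14.5% held the T-box letters on either strand, and 5257 promoters held those of TCF/LEF. These 6-letter searches say nothing about the factors themselves.

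Because 1 male and 1 female went into each library, Xist and Y-linked RNA told the mice of a library apart, a split made after the values were seen. Of the Tsc1 RPE KO cells, 55 came from the female (an Xist UMI and no UMI of Ddx3y, Eif2s3y, Uty or Kdm5d) and 31 from the male (the reverse), and of the Tsc1 flox cells 49 and 32; the other cells could not be assigned. Ccl5-high cells came from every mouse: 20 of 55 in the Tsc1 RPE KO female (36.4%, 23.8 to 50.4), 8 of 31 in the Tsc1 RPE KO male (25.8%, 11.9 to 44.6), 8 of 49 in the Tsc1 flox female (16.3%, 7.32 to 29.7) and 7 of 32 in the Tsc1 flox male (21.9%, 9.28 to 40.0). The 4 intervals overlapped. With 1 mouse of each sex per genotype, sex and the individual mouse cannot be told apart.

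Across genotypes, most genes of the gated CD8 T cells lay close together. Of 3430 genes with at least 50 UMIs over both libraries, 174 (5.07%) had a Tsc1 RPE KO over Tsc1 flox ratio of at least 1.5 and 142 (4.14%) a ratio of at most 1/1.5, with a median log2 ratio of 0.02. Among the 12 genes that led the ranking upward were Ccl5 and genes with a higher CPM in the Ccl5-high than in the Ccl5-low cells of both libraries (Cx3cr1, Il18rap, Lgals1, Slamf7, Cd48, Nkg7, Ifi206). The others were Gdpd3, Commd7, Smc6 and Fam133b. Ccl5-high cells numbered 34 in Tsc1 RPE KO and 20 in Tsc1 flox; the part of that number in the ratios of such genes was not tested. Fewer cells with a gene's RNA and less RNA per cell cannot be told apart in the sums.

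Ccl5 had 4811 UMIs (6867 CPM) in Tsc1 RPE KO and 2652 UMIs (3462 CPM) in Tsc1 flox, a ratio of 1.98 (1.89 to 2.08). Cx3cr1 had 111 UMIs in Tsc1 RPE KO and 36 UMIs in Tsc1 flox, a ratio of 3.37 (2.30 to 5.06) over all gated cells and 2.20 (1.498 to 3.30) among Ccl5-high cells. Lgals1, which encodes galectin-1, had a ratio of 2.23 (1.89 to 2.63) over all gated cells and 1.24 (0.81 to 1.90) among Ccl5-low cells. In CD4 T cells of the same libraries the ratio was 7.05 (5.94 to 8.43) for Ccl5 and 4.28 (2.88 to 6.55) for Lgals1. Cx3cr1 had 27 Tsc1 RPE KO UMIs and 1 Tsc1 flox UMI there. In B cells the ratio was 8.60 (5.42 to 14.3) for Ccl5 and 1.14 (0.74 to 1.74) for Lgals1. Higher ratios of these genes were thus not particular to the gated CD8 T cells. By mouse, these 3 genes were highest in the Tsc1 RPE KO female. Ccl5 was 9394 CPM in the Tsc1 RPE KO female and 3182 CPM in the Tsc1 RPE KO male, against 1992 CPM in the Tsc1 flox female and 5340 CPM in the Tsc1 flox male. Cx3cr1 was 218 CPM in the Tsc1 RPE KO female and between 51.7 and 67.0 CPM in the other mice. The Tsc1 RPE KO over Tsc1 flox ratio of Ccl5 was 4.72 (4.33 to 5.14) between females and 0.596 (0.540 to 0.657) between males. Ccl5 was seen in 29 Tsc1 RPE KO and 12 Tsc1 flox female cells and in 11 male cells of each library. The intervals do not cover the spread between these cells. Lgals1 had the same order of mice, with 821 CPM in the Tsc1 RPE KO female and 359 CPM in the Tsc1 RPE KO male, against 201 CPM in the Tsc1 flox female and 518 CPM in the Tsc1 flox male.

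Ifi206, a member of the interferon-inducible p200 family, stood apart from that pattern. It had 74 UMIs in 51 Tsc1 RPE KO cells and 17 UMIs in 11 Tsc1 flox cells, a ratio of 4.76 (2.78 to 8.60) over all gated cells, 5.73 (2.96 to 12.2) among Ccl5-low cells and 5.47 (3.05 to 10.5) without the highest cell of each library. Both Tsc1 RPE KO mice were above both Tsc1 flox mice: 100.002 CPM in the Tsc1 RPE KO female and 113 CPM in the Tsc1 RPE KO male, against 18.2 CPM in the Tsc1 flox female and 22.3 CPM in the Tsc1 flox male. The ratio was 8.18 (2.92 to 31.7) in CD4 T cells and 3.07 (1.99 to 4.85) in B cells of the same libraries. Its neighbour Ifi213 had 33 UMIs in Tsc1 RPE KO and 2 UMIs in Tsc1 flox, which is under the 50 UMIs asked of a measured gene, a ratio of 18.0 (4.61 to 155). The genes of this family resemble each other, so how their reads were divided is uncertain. Ifi206 lies on the minus strand of chromosome 1 from 173468485 to 173491041 and Ifi213 from 173566283 to 173599274 (mm10, GENCODE M21), while Ifi209 and Ifi203, further along the same cluster, had ratios of 1.32 (0.97 to 1.78) and 0.81 (0.69 to 0.94).

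Other interferon-stimulated genes did not reach a ratio of 1.5. Of 22 on the list, 17 were measured; 9 were above 1, 0 reached 1.5 (5.07% of all measured genes), 2 were at or below 1/1.5 (4.14% of all), and the median log2 ratio was 0.01, beside 0.02 over all measured genes. Bst2 (tetherin) had 64 UMIs in Tsc1 RPE KO and 148 UMIs in Tsc1 flox, a ratio of 0.47 (0.35 to 0.64) that was 0.68 (0.49 to 0.95) among Ccl5-low cells. It was lower in both Tsc1 RPE KO mice (118 CPM in the female, 56.4 CPM in the male) than in the Tsc1 flox mice (185 CPM in the female, 263 CPM in the male). Rnf213, a ubiquitin ligase, had 18 UMIs in Tsc1 RPE KO and 59 UMIs in Tsc1 flox, a ratio of 0.33 (0.19 to 0.57). Its interval would place it among the genes ranked lowest. It was left out there because it was higher in free RNA, read from barcodes of few UMIs, than in the gated cells. The part of free RNA in its ratio was not tested. Isg15, Irf7, Xaf1 and Ifit3 lay between 1.05 and 1.13.

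Gdpd3, a lysophospholipase gene on chromosome 7, was seen in male cells alone among the cells assigned to a mouse. It had 67 UMIs in Tsc1 RPE KO and 22 UMIs in Tsc1 flox, a ratio of 3.33 (2.03 to 5.66), with 1.58 (0.97 to 2.63) in CD4 T cells and 2.74 (1.92 to 3.97) in B cells. Its UMIs were 0 in the 55 female cells of Tsc1 RPE KO and the 49 female cells of Tsc1 flox. In the males it reached 225 CPM over 14 positive Tsc1 RPE KO cells and 62.5 CPM over 7 positive Tsc1 flox cells, a ratio of 3.61 (1.94 to 7.13). Of the gated cells, 31 of 120 in Tsc1 RPE KO and 32 of 118 in Tsc1 flox were assigned to the male. The part of the share of male cells in the Gdpd3 ratio over all gated cells was not tested.

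Smc6, a subunit of a chromosome maintenance complex, had 214 UMIs in Tsc1 RPE KO and 122 UMIs in Tsc1 flox, a ratio of 1.92 (1.53 to 2.42), with 2.35 (1.80 to 3.09) in CD4 T cells and 1.93 (1.66 to 2.24) in B cells. It was 379 CPM in the Tsc1 RPE KO female and 200 CPM in the Tsc1 RPE KO male, against 131 CPM in the Tsc1 flox female and 156 CPM in the Tsc1 flox male, and the interval of the ratio between males, 0.79 to 2.08, held 1. Commd7 had a ratio of 2.23 (1.68 to 2.98) in the gated CD8 T cells, against 0.87 (0.51 to 1.49) in CD4 T cells and 0.82 (0.64 to 1.05) in B cells; a test of that difference between cell types was not possible with 1 library per genotype. Cd48, an adhesion and signalling receptor of lymphocytes, had a ratio of 1.83 (1.46 to 2.30).

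**Figure D3:**
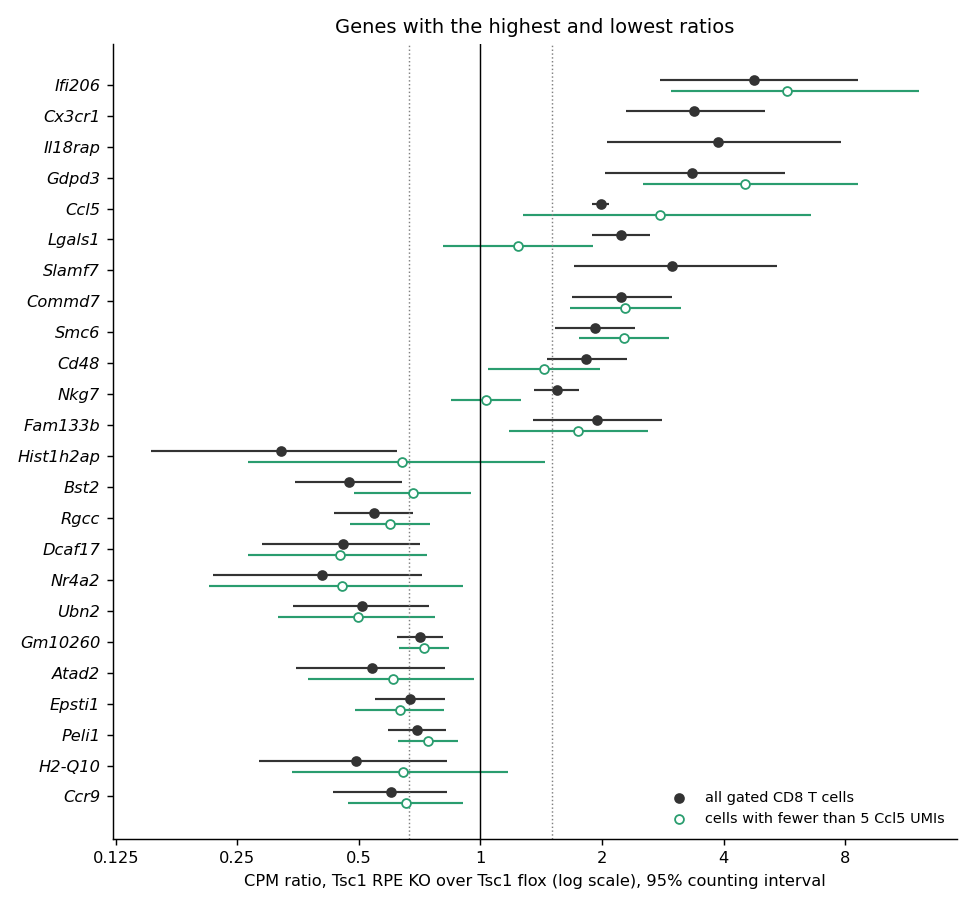
Tsc1 RPE KO over Tsc1 flox ratio of CPM (logarithmic axis) with 95% counting intervals for the 12 genes ranked highest and the 12 ranked lowest, over all gated CD8 T cells (filled) and over the Ccl5-low cells (open). Cx3cr1, Il18rap and Slamf7 have no open point because too few UMIs remained; Ifi206, Gdpd3, Commd7, Smc6, Fam133b and Ccl5 lie above the dotted line at 1.5 in the Ccl5-low cells (for Ccl5, 23 and 10 UMIs, which the split on its own UMIs limits), and Lgals1, Cd48 and Nkg7 below it.

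The 12 genes ranked lowest had mixed roles. Ccr9, the receptor for Ccl25 that serves homing to gut and thymus, had 61 UMIs in 30 Tsc1 RPE KO cells and 111 UMIs in 48 Tsc1 flox cells, a ratio of 0.60 (0.43 to 0.83), and 0.66 (0.47 to 0.91) among Ccl5-low cells. Rgcc, a cell cycle regulator, had 121 UMIs in Tsc1 RPE KO and 243 UMIs in Tsc1 flox, a ratio of 0.54 (0.43 to 0.68), and the Tsc1 flox female, at 365 CPM, was higher than the other 3 mice, of which the Tsc1 flox male was highest at 232 CPM. Nr4a2, an orphan nuclear receptor induced by antigen receptor signals, had 17 UMIs in Tsc1 RPE KO and 46 UMIs in Tsc1 flox, a ratio of 0.40 (0.22 to 0.72). Peli1, a ubiquitin ligase that restrains T cell activation in mice, had a ratio of 0.70 (0.59 to 0.82), which does not reach 1/1.5. Between males the intervals of Ccr9 (0.45 to 1.32), Rgcc (0.65 to 1.51), Nr4a2 (0.28 to 2.69) and Peli1 (0.72 to 1.29) held 1. Between females they lay below 1. With each cell thinned to 1500 UMIs, the ratio of Ccr9 was 0.86. Hist1h2ap had a ratio of 0.32 (0.15 to 0.62), and 53.7% of its Tsc1 flox UMIs were in 1 cell. Its ratio was 0.58 (0.24 to 1.30) without the highest cell of each library and 0.96 with an effector sum of 0; histone copies are nearly identical, so its reads are uncertain. The remaining genes of the lowest 12 were Bst2, Dcaf17, Ubn2, Gm10260, Atad2, Epsti1 and H2-Q10, with ratios from 0.46 to 0.71.

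**Figure D4:**
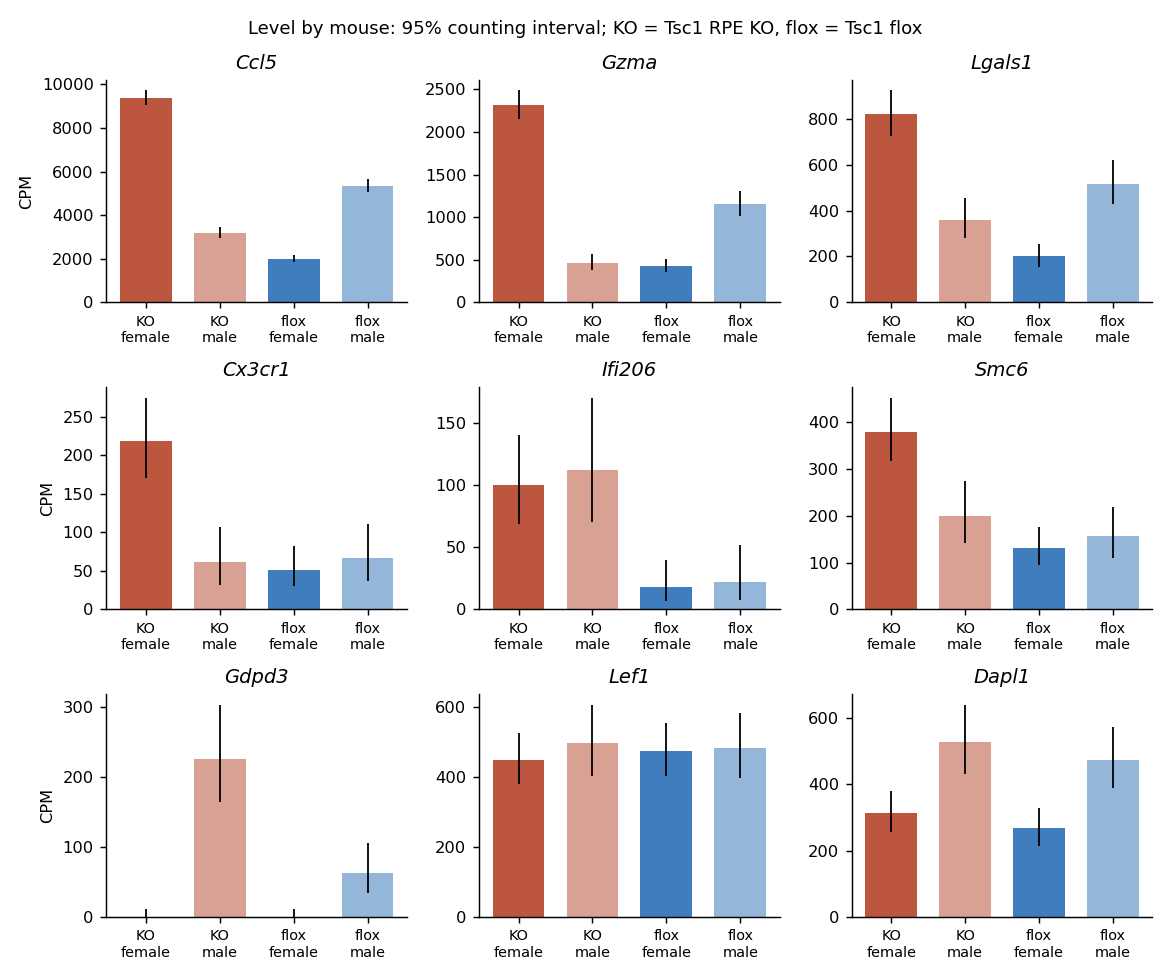
Level (CPM) of 9 genes in the gated CD8 T cells of each mouse, with the Tsc1 RPE KO female and male left of the Tsc1 flox female and male; lines are exact Poisson 95% intervals, and axes start at 0. Ccl5, Gzma, Lgals1, Cx3cr1 and Smc6 are highest in the Tsc1 RPE KO female, Ifi206 is higher in both Tsc1 RPE KO mice, Gdpd3 is at 0 in both females, Lef1 lies between 448 and 497 CPM in the 4 mice, and Dapl1 is higher in both males.

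Grouped by role, few naive genes were past 1.5-fold, as among all measured genes (5.07% higher and 4.14% lower). Of 17 transcription factors of naive T cells, 15 were measured: 1 reached 1.5 (Id3), 1 was at or below 1/1.5 (Bach2), and the median log2 ratio was -0.07. Lef1 had 474 CPM in Tsc1 RPE KO and 499 CPM in Tsc1 flox (ratio 0.95, 0.82 to 1.10), and Tcf7 374 and 439 CPM (0.85, 0.72 to 1.01). Id3, an inhibitor of E proteins, had 60 UMIs in Tsc1 RPE KO and 30 in Tsc1 flox, but 44 of the Tsc1 RPE KO UMIs were in 1 cell, and the ratio of 2.19 was 0.83 (0.41 to 1.68) without the highest cell of each library. Bach2, a repressor that keeps T cells resting, had a ratio of 0.62 (0.39 to 0.96). Of 15 surface and cytosolic genes of naive T cells, 13 were measured, with 1 higher, 1 lower and a median log2 ratio of -0.12. The higher one was Igfbp4, with a ratio of 2.11 (1.61 to 2.78) that was 1.36 (0.98 to 1.89) without the highest cell of each library, and the lower one Il6ra (0.65, 0.41 to 1.002). Ccr7 (0.89) and Il7r (0.92) lay within 1.5-fold, as did S1pr1, the receptor for egress from lymphoid organs (0.76, 0.63 to 0.90). Igfbp4 was higher in free RNA than in the gated cells, and the part of free RNA in its ratio was not tested.

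Of 16 cytotoxic effector genes, 11 were measured, with 6 higher in Tsc1 RPE KO, 2 lower and a median log2 ratio of 0.63. Over all measured genes, 5.07% were higher and 4.14% lower. The higher ones were Gzma (2.57, 2.29 to 2.89), Gzmb (1.65, 1.19 to 2.29), Prf1 or perforin (1.64, 1.04 to 2.61), Nkg7 (1.54, 1.36 to 1.76), Zeb2 (2.41, 1.63 to 3.62) and Ctsw or cathepsin W (1.61, 1.27 to 2.05). The lower ones were Ifng (0.46, 0.25 to 0.84) and the chemokine Ccl4 (0.34, 0.26 to 0.45), of which 149 of 211 Tsc1 flox UMIs were in 1 cell and whose ratio was 0.83 (0.56 to 1.23) without the highest cell of each library. Among Ccl5-low cells, Ctsw had a ratio of 1.84 (1.36 to 2.49), Nkg7 1.03 (0.85 to 1.26) and Prf1 0.83 (0.38 to 1.77), while Gzma, Gzmb and Zeb2 had at most 2 UMIs per library. Gzma was 2318 CPM in the Tsc1 RPE KO female and 466 CPM in the Tsc1 RPE KO male, over 14 and 4 positive cells. It was 429 CPM in the Tsc1 flox female and 1152 CPM in the Tsc1 flox male, over 4 and 5 positive cells. Like Ccl5, it was highest in the Tsc1 RPE KO female. Ccl4 and Zeb2 were higher in free RNA than in the gated cells, and the part of free RNA in their ratios was not tested. The memory list had 10 of 16 genes measured, with 2 higher (Ccl5 and Nkg7), 1 lower (Ly6a, 0.62, 0.39 to 0.97) and a median log2 ratio of 0.18.

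Homing and adhesion genes (12 of 15 measured) had Cx3cr1 and Itgb2, a leukocyte integrin chain (1.52, 1.08 to 2.14), higher, Ccr9 lower and a median log2 ratio of 0.25. The shares over all measured genes, for this and the next lists, were 5.07% higher and 4.14% lower. Of 17 immediate early and heat shock genes measured, 1, Jun (0.51, 0.33 to 0.78), was lower and 0 were higher, with a median of -0.09. Jun was higher in free RNA than in the gated cells, and the part of free RNA in its ratio was not tested. Gimap7, of a family of lymphocyte GTPases, was higher (1.63, 1.17 to 2.29), and the other 7 Gimap genes were within 1.5-fold. Cytokine receptors had 1 of 12 measured genes lower (Il6ra), and quiescence (13), cell cycle (7), actin and motility (14) and resident (3) genes had 0 past the fold.

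Genes of the pathway that Tsc1 restrains lay within 1.5-fold where measured, as did all but the 5.07% higher and 4.14% lower of all measured genes. Tsc1 itself had 10 UMIs in Tsc1 RPE KO and 14 UMIs in Tsc1 flox, and Tsc2 had 2 and 9 UMIs; the Cre is directed at the RPE, and 3' tags do not check a deletion elsewhere in the gene. Of 20 genes of the TSC complex, mTORC1 and the Rag GTPases, 9 were measured, with 0 higher, 0 lower and a median log2 ratio of -0.14. Of 14 glycolysis genes, 9 were measured with 0 past the fold and a median log2 ratio of 0.26, with Pkm at 1.46 (1.08 to 1.97) and Gapdh at 1.1998 (1.02 to 1.41). The 12 measured mitochondrially encoded genes were all within the fold and at or below 1, with a median log2 ratio of -0.15. MHC class I presentation (11 of 11 within 1.5-fold) and 16 T cell receptor signalling genes (16 of 16 within) had median log2 ratios of 0.03 and 0.02. Trbc1, a constant segment of the T cell receptor beta chain, had 617 UMIs in Tsc1 RPE KO and 446 UMIs in Tsc1 flox, a ratio of 1.51 (1.34 to 1.71), while Trbc2 had 0.95 (0.87 to 1.04); these segments are nearly identical, so the division of reads between them is uncertain.

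The markers of other cells moved in places. The natural killer (NK) list, which shares Gzma, Prf1 and Eomes with cytotoxic T cells, summed to 1724 CPM in Tsc1 RPE KO and 668 CPM in Tsc1 flox. Most of these sums was Gzma. The list held 1208 UMIs in Tsc1 RPE KO, and Gzma alone gave 765 in female and 91 in male cells. In Tsc1 flox it held 512 UMIs, and Gzma gave 141 in female and 258 in male cells. Of its 12 genes 3 were measured and all 3 were higher, beside 5.07% of all measured genes. Gzma and Prf1 are among these 3 and were also counted in the cytotoxic effector list. The Tsc1 RPE KO cell with the highest sum over the NK markers Ncr1, Klrb1c, Tyrobp and Fcer1g held 13 UMIs of Fcer1g, 4 of Tyrobp and 2 of Klre1, and 0 of Ncr1 and Cd8b1. That cell also held T cell RNA, with 6 UMIs of Trac, 5 of Cd3d, 3 of Cd3e, 9 of Cd3g and 1 of Cd8a. It had 31 UMIs of Ccl5 and 0 of Gzma. The Tsc1 flox cell with the highest such sum held 0 UMIs of Fcer1g, Tyrobp, Klre1 and Ncr1, 11 of Cd8b1, 3 of Trac, 171 of Ccl5 and 80 of Gzma. In all, 3 Tsc1 RPE KO cells and 0 Tsc1 flox cells had a sum of at least 3 UMIs. Fibroblast markers summed to 191 CPM in Tsc1 RPE KO and 530 CPM in Tsc1 flox, of which 128 of 134 and 369 of 406 UMIs were in 1 barcode each. Rod markers summed to 158 CPM in Tsc1 RPE KO and 18.3 CPM in Tsc1 flox, erythroid and platelet markers to 92.8 and 222 CPM, RPE markers to 14.3 and 14.4 CPM, and B cell markers to 197 and 187 CPM. Monocyte markers summed to 327 and 299 CPM, endothelial markers to 42.8 and 40.5 CPM, and CD4 helper markers to 54.2 and 69.2 CPM. Without mixed barcodes, 141 genes reached a ratio of 1.5 and 119 were at or below 1/1.5, of 2589 measured.

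The gated CD8 T cells were next set against CD4 T cells chosen by the mirrored gate (Cd4 present, Cd8a and Cd8b1 at 0, the same effector limit), 74 cells in Tsc1 RPE KO and 65 in Tsc1 flox. UMI counts were summed per class and library and tested with edgeR's quasi-likelihood test with Benjamini-Hochberg adjustment over 6199 genes, leaving the 13 gate genes out of the calls. Each class came from the same 2 libraries, and library was a term of the fit. The p-values therefore measure how far class differences varied between 2 pools of different genotype, and not the spread between mice. That spread was estimated together with the effector and innate-like T cells described below. Against CD4 T cells, 98 genes were higher in the gated CD8 T cells (1.58%) and 74 lower (1.19%).

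Ccr9 stood out among the higher genes, with 61 UMIs in Tsc1 RPE KO and 111 UMIs in Tsc1 flox CD8 T cells and 0 UMIs in the CD4 T cells of both libraries. With the CD4 count put at a floor of 3 over both libraries, it was at least 28.5-fold higher (edgeR adjusted p = 5.58e-10). It was a gene of Ccl5-low cells, and among those it was also called. Itgae, the integrin chain CD103 that binds E-cadherin, had 23 and 21 UMIs in CD8 T cells of Tsc1 RPE KO and Tsc1 flox and 1 and 0 UMIs in CD4 T cells, a log2 difference of 4.29 ± 0.82 (SE; edgeR adjusted p = 0.000833). Runx3, the transcription factor that silences Cd4 in the CD8 lineage, had 231 and 227 CPM in CD8 T cells and 116 and 70.0 CPM in CD4 T cells of Tsc1 RPE KO and Tsc1 flox (log2 difference 1.32 ± 0.21, edgeR adjusted p = 4.71e-05). The difference was seen in both libraries for all 3 genes.

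Other genes called higher included Klrd1 and Ly6c2. Klrd1 (CD94) had 428 and 334 CPM in CD8 T cells and 116 and 14.0 CPM in CD4 T cells of Tsc1 RPE KO and Tsc1 flox (log2 difference 2.59 ± 0.26, edgeR adjusted p = 5.16e-09). Ly6c2, a surface protein of memory CD8 T cells, had 357 and 470 CPM in CD8 T cells and 59.2 and 16.8 CPM in CD4 T cells (3.43 ± 0.26, edgeR adjusted p = 4.26e-12). Klrc1, Klrc2, Gzmk and Eomes had between 14 and 31 UMIs per library in CD8 T cells and 0 in CD4 T cells, so they were at least 8.61-, 8.78-, 8.45- and 4.97-fold higher. With DESeq2, Klrc1, Klrc2 and Gzmk were still called (adjusted p = 0.0366 each) and Eomes was not (adjusted p = 0.306). Eomes was also not called with an effector sum of 0 (edgeR adjusted p = 0.308). With Ccl5-low cells alone in every class, Klrc1, Klrc2, Gzmk and Eomes did not pass the filter on low counts and were not tested. Ccl5-high cells were 34 of 120 gated CD8 T cells in Tsc1 RPE KO and 20 of 118 in Tsc1 flox. Among CD4 T cells they were 11 of 74 and 1 of 65. The part of that difference in the contrast was not tested. Klrc1 and Klrc2, like Ly6c1 and Ly6c2, are close copies, and how reads were divided between them is uncertain. Of 16 cytotoxic effector genes 15 were tested, with 9 called higher, 0 lower and a median log2 difference of 2.42, beside 0.01 over all genes tested. With Ccl5-low cells alone in every class, 3 were called higher and 0 lower. Of 9 NK markers tested, 3 were called higher and 0 lower, or 4 higher without mixed barcodes and 0 with Ccl5-low cells alone; their part in these differences was not tested. Of 16 memory genes 15 were tested, with 9 higher, 1 lower (Ly6c1) and a median log2 difference of 2.42, or 2.31 with genes at 0 put at their bound; with Ccl5-low cells alone, 4 were higher and 1 lower. The other genes at 0 in CD4 T cells among the 10 leading ones were Xcl1, Plek, Bend4, Birc5 and Gm43698. Xcl1, Plek and Birc5 were not called with DESeq2 (adjusted p = 0.0665, 0.162 and 0.155). For Birc5, a mitosis gene, all 12 Tsc1 RPE KO UMIs and all 20 Tsc1 flox UMIs were in 1 cell each, and for Xcl1, a chemokine of CD8 T cells, 24 of 25 and 11 of 15 UMIs were in 1 cell each.

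The genes lower in CD8 T cells included the lineage genes of CD4 helper cells. Zbtb7b (ThPOK), which sets the CD4 fate, had 2 UMIs in Tsc1 RPE KO and 1 UMI in Tsc1 flox CD8 T cells and 12 and 15 UMIs in CD4 T cells (log2 difference -4.02 ± 0.72, edgeR adjusted p = 0.000322; DESeq2 adjusted p = 0.0894). Cd40lg, the helper ligand for CD40, had 8.56 and 7.83 CPM in CD8 T cells and 129 and 154 CPM in CD4 T cells of Tsc1 RPE KO and Tsc1 flox (-4.05 ± 0.34, edgeR adjusted p = 5.9e-11). Trat1, an adaptor of the T cell receptor, had 17.1 and 23.5 CPM in CD8 T cells and 124 and 137 CPM in CD4 T cells (-2.65 ± 0.29, edgeR adjusted p = 3.07e-08). Of 16 receptor signalling genes, Cd5, Cd6 and Cd28 were called lower and the phosphatase gene Ptpn22 higher. Of 17 naive transcription factors, Satb1, Bcl11b, Gata3 and Zbtb7b were lower and Runx3 higher; with Ccl5-low cells alone, 2 were called lower and 1 higher. Lgmn, Ly6c1, Pdlim4, St8sia6 and Nav2 were also among the lowest 10, Nav2 with 0 UMIs in CD8 T cells and 10 in CD4 T cells. The lowest 10 also held the rod gene Pdc, with 49 UMIs in the Tsc1 RPE KO CD4 T cells but 1 UMI in those of Tsc1 flox; 3 of 3 rod markers tested were called lower, and 0 without mixed barcodes.

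The naive markers Lef1, Dapl1 and Ccr7 were not called in this contrast. Lef1 had 474 and 499 CPM in CD8 T cells and 662 and 599 CPM in CD4 T cells of Tsc1 RPE KO and Tsc1 flox (log2 difference -0.36 ± 0.16, edgeR adjusted p = 0.341). Dapl1 was at 0.49 ± 0.20 (edgeR adjusted p = 0.25) and Ccr7 at -0.15 ± 0.15 (edgeR adjusted p = 0.785). Of 15 surface and cytosolic naive genes 0 were called higher and 1, Il6ra, lower, with a median log2 difference of -0.33.

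**Figure D5:**
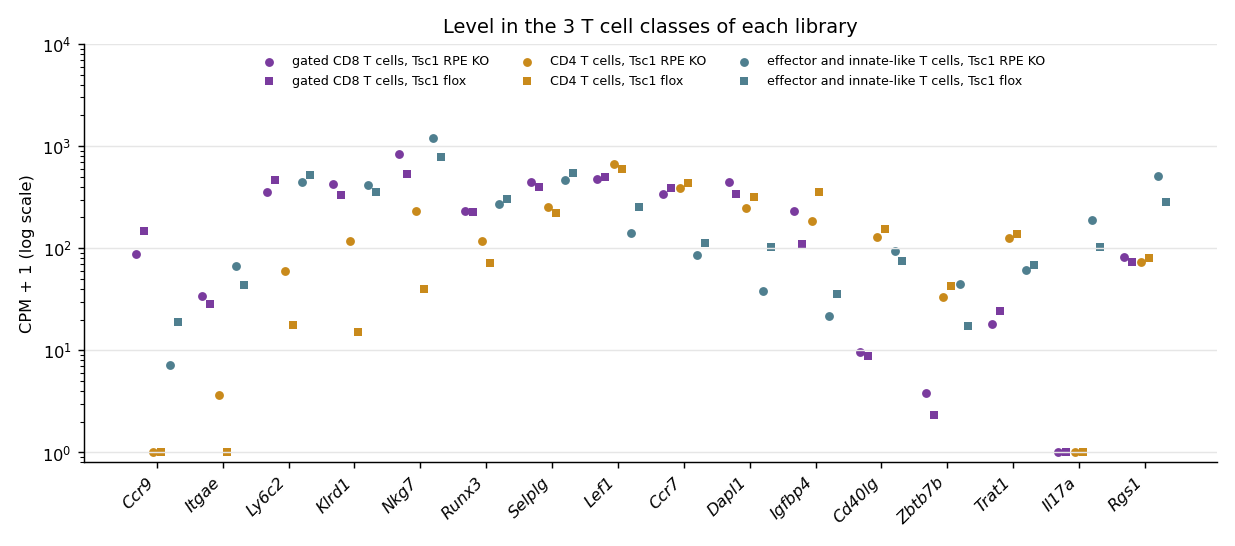
Level of 16 genes as CPM plus 1 (logarithmic axis) in gated CD8 T cells, CD4 T cells and effector and innate-like T cells, with Tsc1 RPE KO (circles) left of Tsc1 flox (squares). Ccr9 is at 0 in CD4 T cells and Il17a at 0 in both CD8 and CD4 T cells, while Lef1 and Ccr7 are close in CD8 and CD4 T cells and lower in the effector class.

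The last comparison was with the effector and innate-like T cells, which had an effector sum of at least 2 UMIs (77 cells in Tsc1 RPE KO, 94 in Tsc1 flox). The gate separates these classes by effector genes, so genes that travel with those are described rather than taken as a separate result. Here 338 genes were higher in the gated CD8 T cells (5.45%) and 284 lower (4.58%). Of 15 surface and cytosolic naive genes 10 were called higher and 1 (Ramp1) lower, with a median log2 difference of 1.04 beside 0.00 over all genes tested; with Ccl5-low cells alone, 6 were higher. Ccr7 had 341 and 385 CPM in CD8 T cells and 85.1 and 111 CPM in effector T cells of Tsc1 RPE KO and Tsc1 flox (log2 difference 2.13 ± 0.17, edgeR adjusted p = 5.8e-12). Dapl1 had 445 and 335 CPM in CD8 T cells and 37.3 and 103 CPM in effector T cells (2.67 ± 0.23, edgeR adjusted p = 3.18e-11). Of 17 naive transcription factors 9 were higher and 2 (Gata3 and Zbtb7b) lower, with Lef1 at 1.54 ± 0.17 (edgeR adjusted p = 1.59e-08). Ccr9 was again higher, at 3.45 ± 0.33 (edgeR adjusted p = 9.7e-10).

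Genes of tissue residence and of other lineages were lower. Rgs1, a regulator that retains lymphocytes in tissue, had 81.4 and 73.1 CPM in CD8 T cells and 510 and 282 CPM in effector T cells of Tsc1 RPE KO and Tsc1 flox (log2 difference -2.06 ± 0.18, edgeR adjusted p = 6.84e-11). Of 7 resident and chronic stimulation genes tested, 5 were lower and 0 higher, and without mixed barcodes 3 were lower. Il17a had 0 UMIs in CD8 T cells and 90 and 62 UMIs in effector T cells of Tsc1 RPE KO and Tsc1 flox, so it was at least 67.8-fold lower, and Trdv4, a variable segment of the delta chain, at least 36.2-fold lower. Krt83, Blk, Ltb4r1 and Nav2 were also at 0 in CD8 T cells, and Socs2, Tmem176a, Lmna and Il1r1 completed the lowest 10. In contrast, Gzma (log2 difference 0.17 ± 0.26, edgeR adjusted p = 0.811), Ccl5 (-0.28 ± 0.23, edgeR adjusted p = 0.579) and Nkg7 (-0.28 ± 0.16, edgeR adjusted p = 0.346) were not called. Of 15 memory genes tested 6 were lower, and of 15 cytotoxic genes 5 were lower and 0 higher, against 2 lower and 4 higher without mixed barcodes and 1 lower and 1 higher with Ccl5-low cells alone. Of 13 mitochondrially encoded genes 8 were higher and 0 lower, or 2 higher with Ccl5-low cells alone. Of 13 cell cycle genes tested, 7 were lower, or 2 without mixed barcodes, among them Stmn1 (-1.58 ± 0.19, edgeR adjusted p = 1.13e-07). The 10 highest genes of this contrast (Igfbp7, Cygb, Timp3, Ccn2, Dcn, Igfbp5, Angpt1, Edn3, Mgp, Serpine2) had much of their RNA in a single barcode of each library, as with Dcn (82 of 84 UMIs in Tsc1 RPE KO and 249 of 253 in Tsc1 flox) and, at the low end, Ccn2 (69 of 70 and 21 of 42), and of the 3 fibroblast markers called, 0 were called without mixed barcodes.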

How the data were processed

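Single-cell libraries of RPE and choroid were analysed, 1 per genotype. The deposited values are raw UMI counts per gene and barcode, with 728310 listed barcodes in Tsc1 RPE KO and 661479 in Tsc1 flox. Alignment to mm10 with Cell Ranger 2.1.1 is given, per the submitters' processing notes, whereas Cell Ranger 4 wrote the matrices, per the file headers; the kit is a 3' v2 kit, per the labels' protocols. Which of these versions gave the counts is not settled. No value was normalized by the authors.

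Cells were taken by the UMI gate given above, with no doublet caller. The cells, the gene lists (28) and the comparisons were chosen with earlier results of these data known. Counts were summed per class and library and expressed per 1000000 UMIs. Poisson, Clopper-Pearson and conditional binomial intervals are exact and cover counting error only (scipy 1.17.1). PCR duplicates are collapsed by UMI. A gene was measured with at least 50 UMIs over both libraries and past the fold at a ratio of 1.5 or 1/1.5. Class contrasts used edgeR 4.0.16 in R 4.3.3 (quasi-likelihood test, TMM, filterByExpr, library as a term, 3 classes by 2 libraries, adjusted p under 0.05), with DESeq2 1.42.0 as an alternative. The SE of a log2 difference was not given by edgeR. It was worked back from the test, as the absolute log2 difference over the square root of the F statistic. On simulated data of 6063 genes for the CD8 over CD4 contrast, 200 of them changed, 27% of changes of log2 size 1 and 81% of size 2 were recovered with 3 false calls. The simulation used a single fixed spread for every gene and no library effect beyond depth. Apart from the changed genes, all classes shared the same profile. It did not model genes with most UMIs in 1 cell, so it does not give the false calls of the real contrasts. Free RNA was read from barcodes of 10 to 100 UMIs.

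Named genes were the 12 highest and 12 lowest genotype ratios ordered by that interval bound which lies closer to 1. Left out were gate genes, other cell types' markers, and mitochondrially encoded and sex-linked genes. Genes higher in free RNA than in the gated cells, with the CPM of both libraries added, were left out too. This free RNA rule took Rnf213, Jun, Ccl4, Zeb2 and Igfbp4 out of the ranking, where their intervals would have placed them. Also named were the 10 highest and 10 lowest called genes of each class contrast with 1 direction in both libraries, and up to 5 abundant genes of each list. Some genes are not reported here and were left out of the lists and their counts. Other listed genes and Ifi213 were named after their values were seen, as were the Ccl5 limit, the split by mouse and the ratios without the highest cell chosen. Promoter sequences are from RefSeq; 7 of 9 genes looked up had an entry. Coordinates are GENCODE M21.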

Additional observations from a re-analysis of the deposited data

Results flagged for a closer look

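For 3 genes the Tsc1 RPE KO over Tsc1 flox ratio had counting intervals on opposite sides of 1 in female and in male cells. The ratio of Ccl5 was 4.72 in female cells and 0.596 in male cells. Ccl5-high cells were 36.4% of Tsc1 RPE KO and 16.3% of Tsc1 flox female cells, and 25.8% and 21.9% of male cells. The ratio of Gzma was 5.41 in female cells (4.51 to 6.52) and 0.405 in male cells (0.315 to 0.516). Gzma was seen in only 14 Tsc1 RPE KO and 4 Tsc1 flox female cells, and in 4 and 5 male cells. The ratio of Lgals1 was 4.09 in female cells (3.12 to 5.44) and 0.692 in male cells (0.507 to 0.940). The difference between the sexes was not tested, since each rests on 1 mouse per genotype. The intervals cover the counting of UMIs and not the spread between cells, of which few carried much of this RNA.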

How the results depend on the processing

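Ratios that changed direction under another setting included those of Il18rap and Prf1 (0.83) with Ccl5-low cells alone and of Id3 (0.83) without the highest cell of each library. With an effector sum of 0, the share of T cells was 23.0% in Tsc1 RPE KO and 24.04% in Tsc1 flox, 114 genes reached a ratio of 1.5, and the contrast with CD4 T cells called 53 genes higher and 45 lower. With cells thinned to 1500 UMIs, 59 genes reached 1.5 and 29 were at or below 1/1.5 of 840 measured. With Ccl5-low cells alone, 97 genes reached 1.5, the CD4 contrast called 42 higher and 34 lower, the effector contrast called 214 higher, and the ratio of Il18rap reversed to 0.606, on 1 and 2 UMIs. The share of genes past the fold that were higher was 55.1% as reported, 44.9% with an effector sum of 0, 41.8% in Ccl5-low cells and 67.0% after thinning. With at least 2 UMIs of the co-receptor, the CD4 contrast called 31 higher and 24 lower. Without mixed barcodes the effector contrast called 179 lower. DESeq2 called 20 higher and 7 lower against CD4 T cells, and 118 and 45 against effector T cells. Without a library term, the calls were 53 higher and 29 lower against CD4 T cells and 220 higher against effector T cells. The cause of these shifts was not tested. No paired analysis was possible between the genotypes because they have 1 library each, so fewer than 2 replicate numbers are shared.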
